A study of Homo sapiens with 8 samples.

Results

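The genes described here encode the translation factors outside the cap-binding complex eIF4F: initiation factors, elongation factors, release and recycling factors, and the cytoplasmic poly(A)-binding proteins. They were chosen by gene symbol as 40 named genes, and each was found exactly once among the 60651 genes of the deposited table. The 8 libraries are ribosome-protected fragments of IMR32, a human neuroblastoma cell line known for its amplified MYCN gene, with wild-type genotype per the labels. In 4 libraries the cells had received CR31B, a silvestrol analogue of the rocaglate class that acts on the RNA helicase eIF4A, at a dose that the labels do not give. The 4 control libraries came from cells given 0.1% DMSO, the solvent. All cells, controls included, were harvested after 6 h and received cycloheximide, which stops elongating ribosomes, before harvest. The replicates are described as biological, and everything comes from 1 line, whose tissue is labelled as brain.

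In translation initiation, eIF2 brings the initiator tRNA to the small ribosomal subunit, where eIF1, eIF1A, eIF3 and eIF5 help to find and check the start codon. The exchange factor eIF2B recharges eIF2 with GTP, and eIF5B joins the large subunit. The eEF1 complex and eEF2 then drive elongation, eIF5A relieves stalls, eRF1 and eRF3 end the chain, and ABCE1 splits the ribosome. Rocaglates clamp eIF4A onto purine-rich RNA. Some mRNAs of translation factors begin with a 5′ terminal oligopyrimidine (TOP) tract, through which mTOR signalling controls their translation.

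For most of this machinery the estimated change in footprints under CR31B, relative to the other genes of a library, was small. Values are TPM, a level scaled for transcript length and for the sum of its library, and a change, or estimate, is the log2 fold change of TPM + 1, CR31B over DMSO. EIF3A, the largest subunit of eIF3, rose, and it was the 1 gene of the 40 with an adjusted p under 0.05 in limma, against 7.46% of all 11778 genes tested (3.45% higher). 0 members passed in the other direction, against 4.02% of all genes tested. Of the 6683 genes at or above the lowest member mean, 8.96% passed in either direction. With the replicate number as a block, 4 members passed, EIF2S2, EIF3A and EIF5B higher and EIF5A lower, against 12.3% of all genes tested. The median log2 fold change was 0.081 over the 40 genes and 0.029 over all genes tested, and without CR31B replicate 1 these medians were 0.014 and -0.0047. The median absolute change was 0.15 and 0.20. Only EIF5B had an estimate beyond 0.5 either way, while 86.1% of all genes tested lay within that limit. At an unadjusted p under 0.05 there were 7 members, against 23.4% of all genes tested.

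The intervals show how large a change, relative to the other genes of a library, the data leave room for. TPM has the same sum in every library, so a fall or rise common to all genes cannot be seen in it. For 32 of the 40 genes the 95% confidence interval of the change lay within 1.5-fold either way, as it did for 50.3% of all genes tested. Member means over the 8 libraries ran from 6.98 to 1940 TPM. Their standard errors ran from 0.10 to 0.22 with a median of 0.13, against a median of 0.16 over all genes tested. The 8 genes whose interval reached further were EIF1B, EIF2S2, EIF3A, EIF3C, EIF3E, EIF5A, EIF5B and PABPC4. Groups did not overlap for 5 members, all higher in CR31B (EIF1, EIF2B5, EIF2S2, EIF3A and EIF3J), against 8.07% of all genes tested that were higher without overlap. 0 members were lower without overlap, against 8.14%. Within replicate pairs, 13 members were higher in CR31B in 4 of 4 pairs and 3 were lower in 4 of 4, against 20.1% and 18% of all genes tested.

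**Figure D1:**
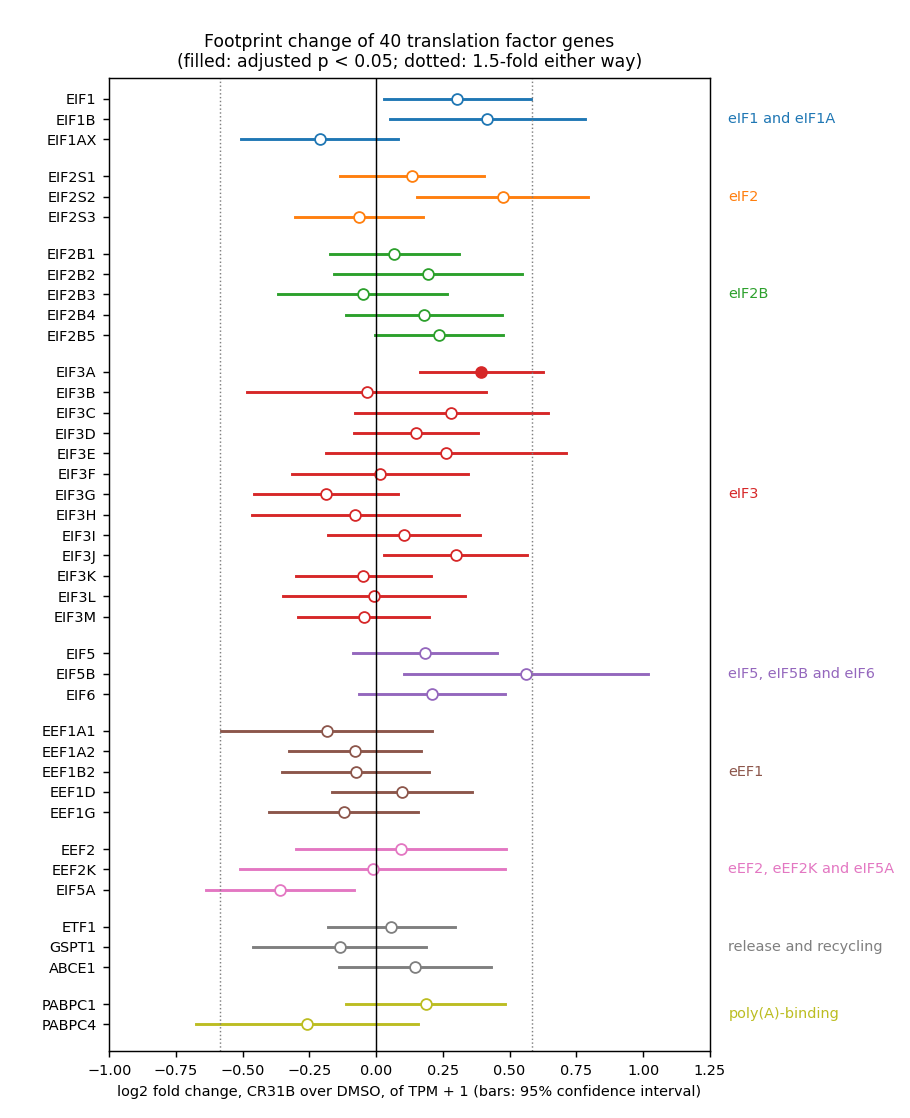
Log2 fold change of TPM + 1 (CR31B over DMSO) for each of the 40 genes, grouped by complex or step, with its 95% confidence interval. EIF3A is the filled point (adjusted p 0.0457 in limma), and 32 intervals stay between the dotted lines at 1.5-fold either way.

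Footprint level depends on both the amount of an mRNA and its ribosome load, and RNA levels were not analysed here. Exons of 26 of the 40 genes overlap those of another gene on either strand, and whether counting used strand is not given in the sources used here. The overlapping neighbours of the members that passed in any fit described below were at most 13.9 TPM, that of GPS2 beside EIF5A. Relative to the member, the neighbour of EIF5B was not small. REV1, on the opposite strand, averaged 4.02 TPM, and EIF5B 6.51 TPM under DMSO and 9.94 TPM under CR31B. In a bulk lysate, a change in every cell and a change in the number of cells cannot be told apart. The share of TPM in protein-coding genes lay between 51.8% and 61.3%, the highest value being that of CR31B replicate 1. Small cell-type lists were checked against the label. Of 10 adrenergic neuroblastoma markers, all were above 0 in all 8 libraries and 9 had a mean of at least 1 TPM, with the exception of TH. Their sum lay between 703 and 804 TPM under CR31B and between 644 and 817 TPM under DMSO, and 1 of them (HAND2) passed the test. Markers of immune, epithelial and glial cells summed to at most 0.27 TPM in any library, and 7 mesenchymal or fibroblast markers summed to between 10.1 and 22.8 TPM, with COL1A1 and FN1 alone at a mean of at least 1 TPM.

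Some of the 40 genes are known for a TOP tract, so sequences at start sites are shown. RefSeq start sites (GRCh38.p14) were at hand for 30 of the 40 genes, and the 10 without an entry were EEF1A2, EEF1D, EIF2S2, EIF3A, EIF3E, EIF3G, EIF3H, EIF3L, PABPC1 and PABPC4. In 7 of the 30 genes, the first base is a C followed on the sense strand by at least 5 more C or T. This form of a TOP tract was found at 3% of all 27305 start sites and 4.6% of those of 8475 tested protein-coding genes. Each line gives 10 bases before and 20 bases from the annotated start, and capitals mark the pyrimidine tract.
EEF1A1 (chr6:73521013-73521042, minus strand): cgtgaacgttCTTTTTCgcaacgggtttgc
EEF2 (chr19:3985444-3985473, minus strand): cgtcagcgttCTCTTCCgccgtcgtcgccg
EIF2S3 (chrX:24054946-24054975, plus strand): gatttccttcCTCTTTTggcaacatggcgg
EIF3D (chr22:36529147-36529176, minus strand): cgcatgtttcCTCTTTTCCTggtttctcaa
EIF3F (chr11:7987327-7987356, plus strand): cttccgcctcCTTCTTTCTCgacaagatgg
EIF3K (chr19:38619178-38619207, plus strand): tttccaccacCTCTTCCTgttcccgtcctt
EIF3M (chr11:32583821-32583850, plus strand): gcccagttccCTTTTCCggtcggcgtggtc
The starts of EIF5A and EIF5B, the members with the lowest and the highest estimate, hold no such tract, like those of most of the 30 genes.
EIF5A (chr17:7306989-7307018, plus strand): tgggaacccgaccacactagcgcgctagaa
EIF5B (chr2:99337379-99337408, plus strand): ctgagaactcacaccatatgtgtcctgttc

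The 7 genes with the tract had log2 fold changes from -0.19 (EEF1A1) to 0.15 (EIF3D), with a median of -0.047, and 0 of them passed the limma test, also at an unadjusted p under 0.05. Over all genes tested the shares were 7.46% adjusted and 23.4% unadjusted, so counts of 0 among so few genes carry little information. The 23 other genes with a start site had a median of 0.13. A list of 10 members known as TOP mRNAs (EEF1A1, EEF1B2, EEF1D, EEF1G, EEF2, EIF3E, EIF3F, EIF3H, EIF3L and PABPC1) overlaps the 7 only in part. Of the 10, 5 had a start site, and 3 of those had the tract (EEF1A1, EEF2 and EIF3F). EEF1B2 and EEF1G lacked it and are counted among the 23. The median change of this list was 0.0037, with 5 members above and 5 below 0, and 0 passed the limma test, also at an unadjusted p under 0.05. The other 30 members had a median of 0.12. These are descriptions of lists, and the start sites that IMR32 cells use were not measured.

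Among the factors that select the start codon, EIF1 encodes the guardian of start codon fidelity and EIF1B its close paralog. In the order of replicates 1 to 4, used throughout, EIF1 had 724, 585, 792 and 624 TPM under CR31B and 562, 555, 540.03 and 535 TPM under DMSO. The CR31B libraries were higher and more scattered, and the groups did not overlap. The means were 681 ± 94.2 and 548 ± 12.5 TPM (SD, n = 4 each), and the estimate of 0.30 (standard error 0.12) did not pass, with an adjusted p of 0.170 in limma. EIF1B, at 103 ± 20.5 TPM under CR31B and 76.5 ± 12.5 TPM under DMSO, was higher in 4 of 4 pairs with overlapping groups (estimate 0.42, standard error 0.16, adjusted p 0.157 in limma). EIF1B gave from 10.6% to 15.0% of the summed TPM of both genes in any library.

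EIF1AX, which encodes eIF1A, a partner of eIF1 in scanning, is the member whose named copies took the most TPM relative to the gene, from 506% to 885%. It lay at 33.6, 31.7, 26.2 and 25.3 TPM under CR31B and at 31.8, 34.5, 39.3 and 30.1 TPM under DMSO, with a log2 fold change of -0.21 (adjusted p 0.374 in limma). Its processed pseudogene EIF1AXP1 (ENSG00000236698.1, chromosome 1, 16685621 to 16686055, GRCh38), singled out after its values were seen, was listed far higher than the gene itself. TPM divides by length, and a GENCODE 29 transcript of EIF1AX has 4427 nt, of which 432 nt are coding. The pseudogene is about as long as that coding part. The gap between the levels, and the weight of each in a sum, can depend on length, which was not tested. EIF1AXP1 stood at 170.01, 180.2, 197 and 156 TPM under CR31B and at 211, 253, 213 and 266 TPM under DMSO. Every DMSO library of the pseudogene was above every CR31B library. Its log2 fold change was -0.42, with an adjusted p of 0.0658 in limma. Summed with its named copies, EIF1AX averaged 205 ± 17.5 TPM under CR31B and 269.7 ± 26.0 TPM under DMSO, without overlap (estimate -0.39, standard error 0.12, adjusted p 0.0664 in limma, and 0.0564 with a replicate block). Most of that sum is EIF1AXP1, so it largely repeats the values of the pseudogene and is no second result. The groups of EIF1AX alone overlapped. How reads that match both were assigned is not given in the sources used here.

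Of the eIF2 subunits, EIF2S1 encodes the alpha subunit that stress kinases phosphorylate, EIF2S2 the beta subunit and EIF2S3 the GTP-binding gamma subunit. EIF2S2 (ENSG00000125977.7, chromosome 20, 34088298 to 34112332) was at 19.8, 16.7, 18.1 and 18.9 TPM under CR31B and at 15.1, 12.4, 9.87 and 15.01 TPM under DMSO. All CR31B libraries were above all DMSO libraries, with CR31B replicate 2 closest to DMSO replicate 1. The estimate was 0.48 (standard error 0.14, 95% confidence interval 0.15 to 0.80). It missed the threshold without a block, at an adjusted p of 0.0737 in limma, and passed with the replicate number as a block, at 0.0407. The pseudogene EIF2S2P4, named after its values were seen, was listed from 19.9 to 38.8 TPM, above EIF2S2 in every library. As for EIF1AXP1, this difference in level can depend on length, which was not tested. Summing both gave a log2 fold change of 0.45 (adjusted p 0.0737 in limma, and 0.0365 with the block).

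The partner subunits had estimates nearer 0. EIF2S1 was at 166 ± 17.5 TPM under CR31B and 151 ± 16.2 TPM under DMSO, with a change of 0.13 (adjusted p 0.555 in limma). EIF2S3 was at 139.7 ± 14.3 and 146 ± 5.38 TPM, with a change of -0.064 (adjusted p 0.774 in limma). EIF2S2 was listed far below both partners, although the 3 proteins form 1 complex. Its ratio to EIF2S1 lay between 0.0955 and 0.124 in CR31B libraries and between 0.0696 and 0.109 in DMSO libraries. With the named copies of EIF2S2 added, the ratio lay between 0.257 and 0.318 under CR31B and between 0.210 and 0.278 under DMSO.

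The 5 subunits of eIF2B, the exchange factor that phosphorylated eIF2 inhibits, had a median change of 0.18, and 0 of them passed the limma test, also at an unadjusted p under 0.05 (7.46% and 23.4% of all genes tested). EIF2B5, the catalytic epsilon subunit, was at 16.8, 15.05, 15.05 and 16.1 TPM under CR31B and at 14.4, 13.1, 11.9 and 13.6 TPM under DMSO. The groups did not overlap, yet the difference was small, with an estimate of 0.23 (standard error 0.11, adjusted p 0.225 in limma). EIF2B2 and EIF2B4 were higher in CR31B in 4 of 4 pairs with overlapping groups, by 0.20 and 0.18 on the log2 scale. EIF2B1 had an estimate of 0.068 and EIF2B3 one of -0.051, each higher in 2 of the 4 pairs. In DMSO the subunits ran from 85.7 TPM for EIF2B1 down to 13.3 TPM for EIF2B5.

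eIF3 is the largest initiation factor, a scaffold of 13 subunits that holds the small subunit and its partners. EIF3A (ENSG00000107581.13, chromosome 10, 119033670 to 119080823) was at 64.5, 58.2, 70.2 and 64.7 TPM under CR31B and at 47.8, 45.5, 52.5 and 49.1 TPM under DMSO. Every treated library was above every control, by a similar amount in the 4 pairs. The mean went from 48.7 ± 2.93 to 64.4 ± 4.92 TPM (SD, n = 4 each), an estimate of 0.39 (standard error 0.10, 95% confidence interval 0.16 to 0.62, adjusted p 0.0457 in limma). Treatment accounted for 84.4% of the variation of EIF3A over the 8 libraries. The exact permutation p was 0.0286, the smallest that 4 and 4 libraries allow. Every gene whose groups do not overlap gets this value, and 16.2% of all genes tested did not overlap. It therefore only restates the lack of overlap. The call was near its limit: it was lost when any library other than CR31B replicate 2 was left out, with adjusted p in limma from 0.0451 to 0.124, while the estimate stayed between 0.35 and 0.44.

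The other subunits did not follow EIF3A past the threshold. EIF3J, a loosely bound subunit, was at 133, 108, 121 and 122 TPM under CR31B and at 107, 96.2, 82.8 and 107 TPM under DMSO. The lowest CR31B library was just above the highest DMSO library, and the change of 0.30 (standard error 0.12) had an adjusted p of 0.166 in limma. EIF3D, which can itself bind caps, and EIF3E were higher in 4 of 4 pairs with overlapping groups, by 0.15 and 0.26. Of the 13 subunits, 7 had an estimate above 0 and 6 below, with a median of 0.014 and a range from -0.19 for EIF3G to 0.39 for EIF3A. Near 0 were EIF3F at 0.014, EIF3L at -0.0070, EIF3B at -0.036, EIF3M at -0.047 and EIF3K at -0.048. EIF3H had an estimate of -0.078, EIF3I of 0.11 and EIF3C of 0.28, with an adjusted p of 0.336 in limma for EIF3C.

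The subunits of eIF3 were listed at unequal levels, and over all 40 genes the order of the group means was nearly kept, with a Spearman correlation of 0.992 (n = 40 genes, across genes) and no gene moving by more than 4 ranks. In DMSO they ran from 48.7 TPM for EIF3A to 340.4 TPM for EIF3M, a 6.99-fold range, and in CR31B the range was 5.21-fold. EIF3E (281 TPM), EIF3I (226 TPM) and EIF3K (206 TPM) followed EIF3M in DMSO, and EIF3D (61.8 TPM) and EIF3B (91.6 TPM) were among the low ones with EIF3L (91.1 TPM). Divided by the median subunit of its library, EIF3A lay between 0.377 and 0.520 in DMSO libraries and between 0.467 and 0.649 in CR31B libraries. TPM divides by a transcript length, and the lengths used are not given in the sources used here, so levels of different genes compare only roughly. EIF3CL, a near copy of EIF3C, was listed at 0 in all 8 libraries, and how reads that match both were assigned is not given in the sources used here.

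**Figure D2:**
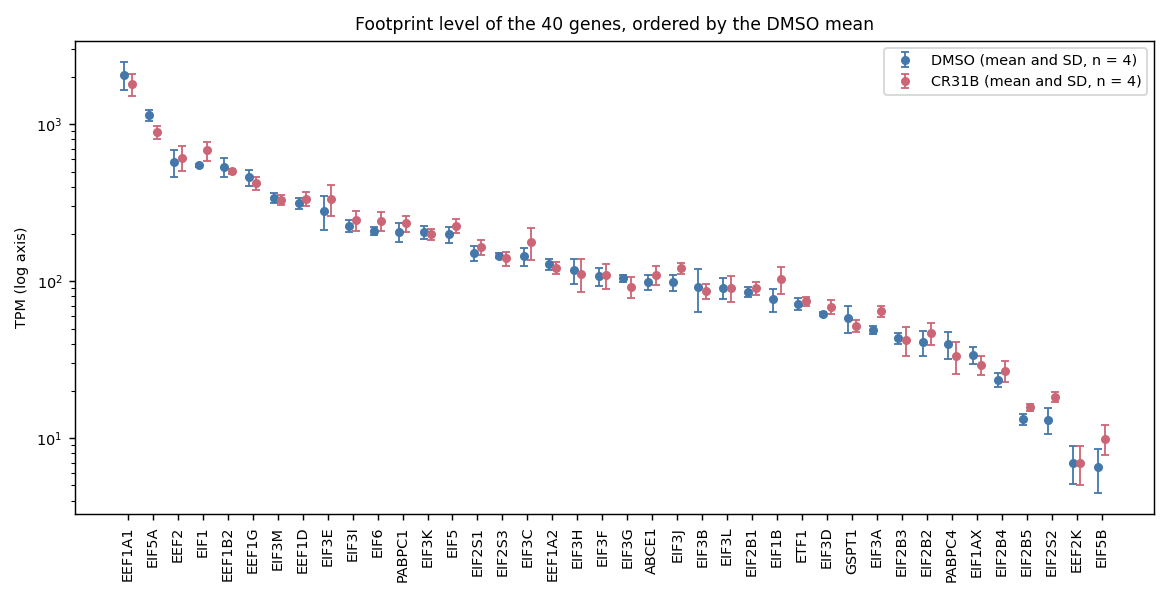
Mean TPM of the 40 genes with SD (n = 4 libraries per group) on a log axis, ordered by the DMSO mean. EEF1A1 is highest at 2071 TPM in DMSO and EIF5B lowest at 6.51 TPM, and no gene moves by more than 4 ranks between the groups.

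In the last step of initiation, EIF5B (ENSG00000158417.11, chromosome 2, 99337353 to 99401326), the GTPase that joins the subunits, had the largest estimate of the 40 genes. It was at 12.8, 10.2, 7.81 and 8.96 TPM under CR31B and at 8.85, 4.68, 5.02 and 7.50 TPM under DMSO. Replicate 1 was highest in both groups, and CR31B was higher in 4 of 4 pairs although the groups overlapped. The estimate was 0.56 (standard error 0.21, 95% confidence interval 0.10 to 1.02). In limma the adjusted p was 0.134 without a block and 0.0438 with it. EIF5, which makes eIF2 hydrolyse GTP, had an estimate of 0.18 (adjusted p 0.405 in limma), and EIF6, which keeps the subunits apart, of 0.21 (adjusted p 0.344 in limma).

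EIF5A (ENSG00000132507.18, chromosome 17, 7306999 to 7312463) encodes the hypusine-bearing factor that helps ribosomes past proline stretches and in termination. It was at 1016, 893, 826 and 832 TPM under CR31B and at 1232, 1170.02, 1006 and 1169 TPM under DMSO. CR31B was lower in 4 of 4 pairs, and only CR31B replicate 1 reached the lowest DMSO library. The mean was 892 ± 88.2 TPM in CR31B and 1144 ± 96.5 TPM in DMSO, an estimate of -0.36 (standard error 0.13, 95% confidence interval -0.64 to -0.083). In limma the adjusted p was 0.114 without a block and 0.0403 with it. It was the 1 member with a lower value under treatment that passed with the block. Its enzymes DHPS and DOHH, which make hypusine and were named after their values were seen, had estimates of -0.044 and 0.13, neither past the threshold.

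**Figure D3:**
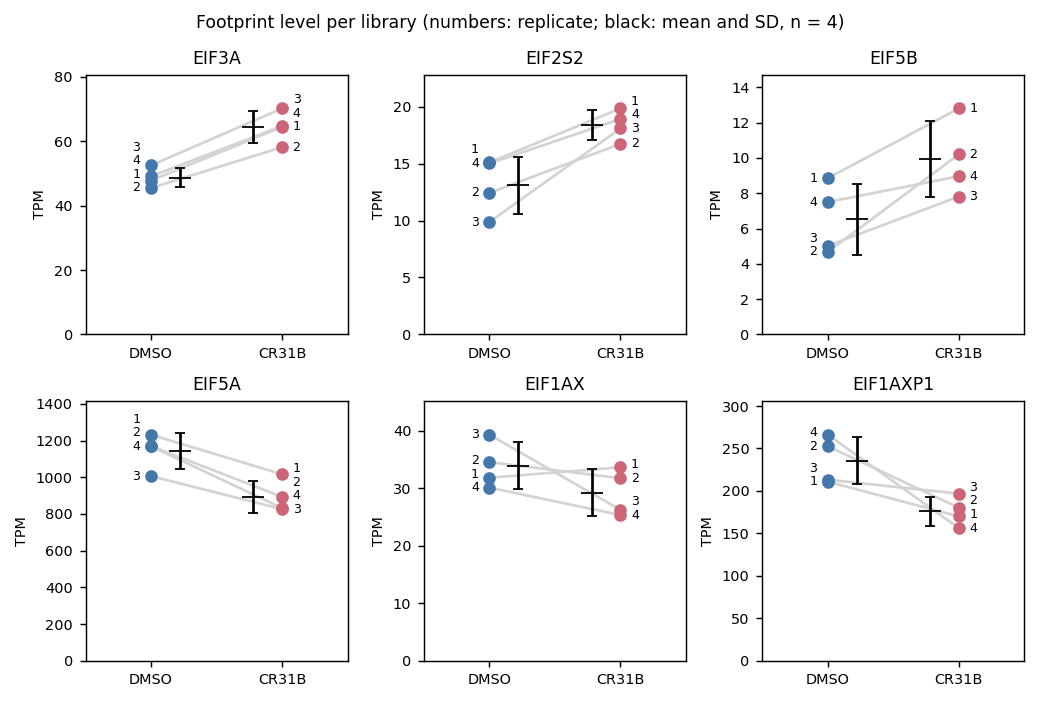
TPM per library for EIF3A, EIF2S2, EIF5B, EIF5A, EIF1AX and the pseudogene EIF1AXP1, with grey lines joining libraries of the same replicate number and black marks for mean and SD (n = 4). EIF3A and EIF2S2 do not overlap between groups, EIF5B and EIF5A differ in the same direction in all 4 pairs, and EIF1AXP1 is listed well above EIF1AX.

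EEF1A1 had the highest level of the 40 genes. Of the eEF1 and eEF2 genes, 0 passed the limma test, also at an unadjusted p under 0.05 (7.46% and 23.4% of all genes tested). EEF1A1, which delivers aminoacyl-tRNA, was at 2197, 1686, 1526 and 1829 TPM under CR31B and at 2477, 1866, 1594 and 2346 TPM under DMSO. It was lower in 4 of 4 pairs, but replicates of a group differed more than the pairs did. The change was -0.19 (standard error 0.18, adjusted p 0.585 in limma, and 0.237 with the block). Pseudogenes named after EEF1A1 numbered 49 and added from 2.39% to 10.2% of its TPM. EEF1A2, its paralog in neurons and muscle, was at 122 ± 10.9 TPM under CR31B and 129 ± 10.5 TPM under DMSO, or from 5.37% to 7.30% of both genes together.

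The subunits of the exchange complex that recharges eEF1A were likewise within their spread. Estimates were -0.077 for EEF1B2, 0.097 for EEF1D and -0.12 for EEF1G on the log2 scale, with adjusted p in limma of 0.764, 0.675 and 0.611. EEF1D was higher and EEF1G lower in CR31B in 4 of 4 pairs. EEF2, the translocase, was at 612 ± 111 TPM under CR31B and 575 ± 113 TPM under DMSO (estimate 0.094, standard error 0.18, adjusted p 0.802 in limma). Its inhibitory kinase EEF2K was at 6.97 ± 1.91 and 7.00 ± 1.86 TPM, with a change of -0.013 and an adjusted p of 0.980 in limma, in a wide 95% confidence interval from -0.51 to 0.48.

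Termination and recycling factors did not differ beyond their spread either. ETF1, which reads stop codons as eRF1, had an estimate of 0.057 (standard error 0.11, adjusted p 0.801 in limma). GSPT1, the GTPase eRF3 that partners it, had an estimate of -0.14 (adjusted p 0.626 in limma), and the recycling ATPase ABCE1 of 0.15 (adjusted p 0.541 in limma). ETF1 and GSPT1 stood at like levels in DMSO, 71.8 ± 6.13 and 57.9 ± 11.3 TPM. PABPC1, the main cytoplasmic poly(A)-binding protein, was at 234 ± 27.0 TPM under CR31B and 206 ± 27.3 TPM under DMSO (log2 fold change 0.19, adjusted p 0.450 in limma). PABPC4 was at 33.2 ± 7.64 and 39.8 ± 7.68 TPM (-0.26, adjusted p 0.445 in limma). The share of PABPC4 in both genes lay between 9.93% and 15.2% under CR31B and between 14.8% and 17.6% under DMSO, lower in 4 of 4 pairs.

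The variation of each gene over the 8 libraries was split between replicate number, with 3 degrees of freedom, and treatment, with 1, so that replicate number takes the larger share in most genes even without an effect. In 25 of the 40 genes the replicate number took a larger share of the variation than treatment, with medians of 49.9% and 17.7%; over all genes tested this held for 66.6%, with medians of 45.3% and 19.7%. Averaged over both groups, 33 members were above their mean in replicate 1, 11 in replicate 2, 9 in replicate 3 and 25 in replicate 4. CR31B replicate 1 was the highest library for 22 members. The extremes were EIF3L, with 96.7% of its variation between replicate numbers, EIF3F with 93.5% and EEF2K with 92.4%. EIF3E had another pattern: it was lowest in replicate 1 and highest in replicate 3 of DMSO, at 199.9 and 362 TPM, and in CR31B replicate 3 it reached 440 TPM.

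**Figure D4:**
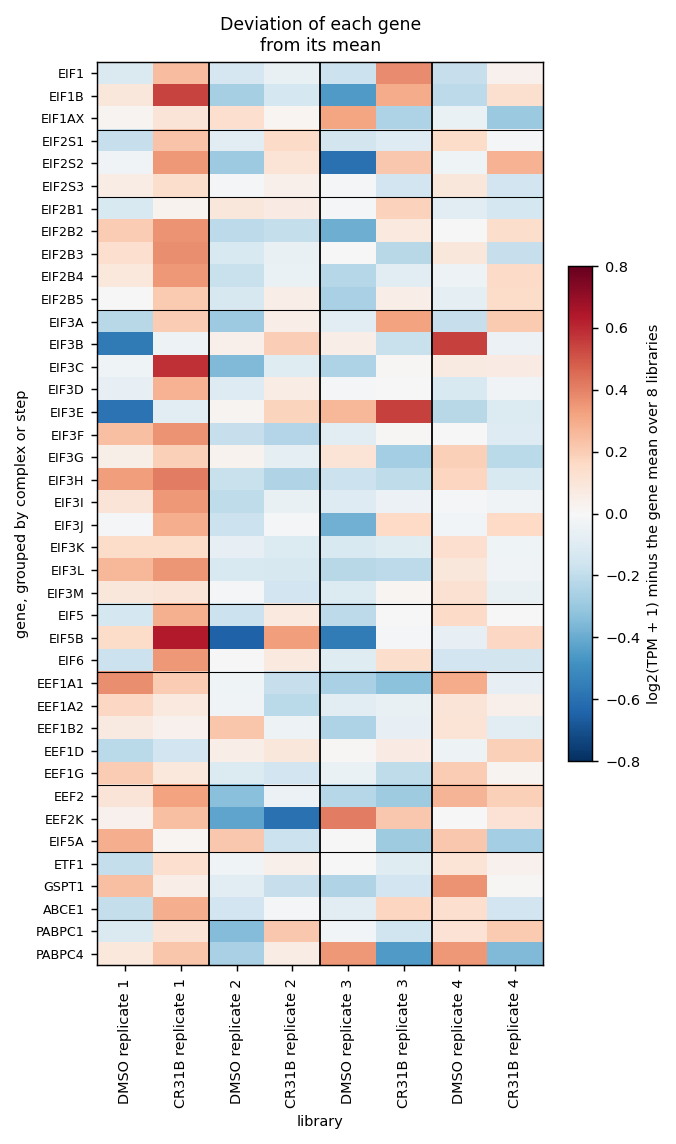
Log2(TPM + 1) of each gene minus its mean over the 8 libraries, with libraries side by side by replicate number and horizontal lines between complexes. Replicate 1 is above the mean for 33 of 40 genes, while EIF3E shows the reverse, and EIF3A is above its mean in all 4 CR31B libraries.

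The 40 genes were also summed. Their share of all TPM lay between 0.859% and 1.02% under CR31B and between 0.830% and 0.995% under DMSO. As a share of the TPM of protein-coding genes alone, it averaged 1.67% ± 0.025 under CR31B and 1.66% ± 0.067 under DMSO (SD, n = 4 libraries a group). When all values were rescaled over protein-coding genes, 6 members passed instead of 1, against 11.9% of the genes tested in that fit. They were EIF1B, EIF2S2, EIF3A, EIF3J and EIF5B higher, and EIF5A lower. The median estimate in that fit was 0.12 over the members and 0.064 over all genes tested.

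The annotated leaders were searched for length and for purine repeats, the sequence that rocaglates favour. In GENCODE 29 principal transcripts, the 5′ untranslated region had a median length of 203 nt over the 40 genes and 205 nt over 10168 tested coding genes, with a median GC content of 62.55% and 66.4%. These leaders were not matched to the RefSeq start sites above and can begin at other bases. A purine repeat, AGAGA or GAGAG on the sense strand (these letters overlap in longer repeats), was found in the leaders of 16 of the 40 members, and in 39.8% of tested coding genes. EEF1A1 is among the 16 with an annotated leader of 992 nt. It occurred in 62.8% of 427 coding genes that fell and 51.7% of 354 that rose, whose leaders were longer, with medians of 310.0 and 279.5 nt. Of the 6 members that passed in any fit given above, EIF3A, EIF2S2, EIF5B, EIF5A and EIF3J have it and EIF1B does not, and these genes were picked after their values were seen. A match is a description of letters in an annotated leader and shows no binding.

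Other genes of translation are given for context. In 7 further lists with 60 genes, of which 59 were tested, 5 rose and 3 fell, or 13.6% of those tested, against 7.46% of all genes tested. The lists were not chosen independently of these data, and this difference was not tested. Of the 13 genes of eIF4F and its regulators 2 rose, EIF4G1 (0.92) and EIF4A2 (0.78, named after its value was seen), and 1 fell, EIF4G2 (-0.75). Among kinases and phosphatase subunits acting on eIF2 alpha, PPP1R15B, which directs the phosphatase to eIF2, rose from 30.7 ± 0.831 to 46.2 ± 2.80 TPM (estimate 0.57, standard error 0.097, adjusted p 0.00766 in limma). It was the 1 gene of those 6 that passed.

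Of 4 tested partners of the poly(A)-binding protein, 2 fell, against 4.02% of all genes tested. PAIP2, an inhibitor that displaces PABPC1 from poly(A), fell from 92.8 ± 1.74 to 56.97 ± 6.63 TPM (estimate -0.70, standard error 0.11, adjusted p 0.00568 in limma). PAIP1, which links PABPC1 to eIF4A and stimulates translation, fell from 31.4 ± 2.06 to 19.9 ± 2.28 TPM (-0.63, standard error 0.11, adjusted p 0.00998 in limma). PAIP1, LARP1 and LARP4 were named after their values were seen. LARP1, which binds TOP mRNAs, had an estimate of -0.045 and LARP4 of 0.36, neither past the threshold, and PAIP2B was too low to be tested.

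Of 9 mitochondrial translation factors 2 rose, against 3.45% of all genes tested. They were the release factor MTRF1L (0.69, standard error 0.16, adjusted p 0.0279 in limma) and the initiation factor MTIF2 (0.45, standard error 0.12, adjusted p 0.0430 in limma, named after its value was seen). In both, all CR31B libraries were above all DMSO libraries. None of the 15 enzymes that modify translation factors, the 5 genes of non-canonical initiation and the 7 of ribosome rescue passed the limma test, and 0, 1 and 3 of them had an unadjusted p under 0.05. The shares over all genes tested were 7.46% adjusted and 23.4% unadjusted. The ribosome rescue pair PELO and HBS1L, named after their values were seen, had estimates of -0.36 and -0.30, each with groups that did not overlap. Their adjusted p in limma was 0.0846 and 0.187. GSPT2 of the same list, at a mean of only 1.04 TPM, was higher without overlap (estimate 0.38, adjusted p 0.166 in limma). Groups did not overlap for 16.2% of all genes tested.

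**Figure D5:**
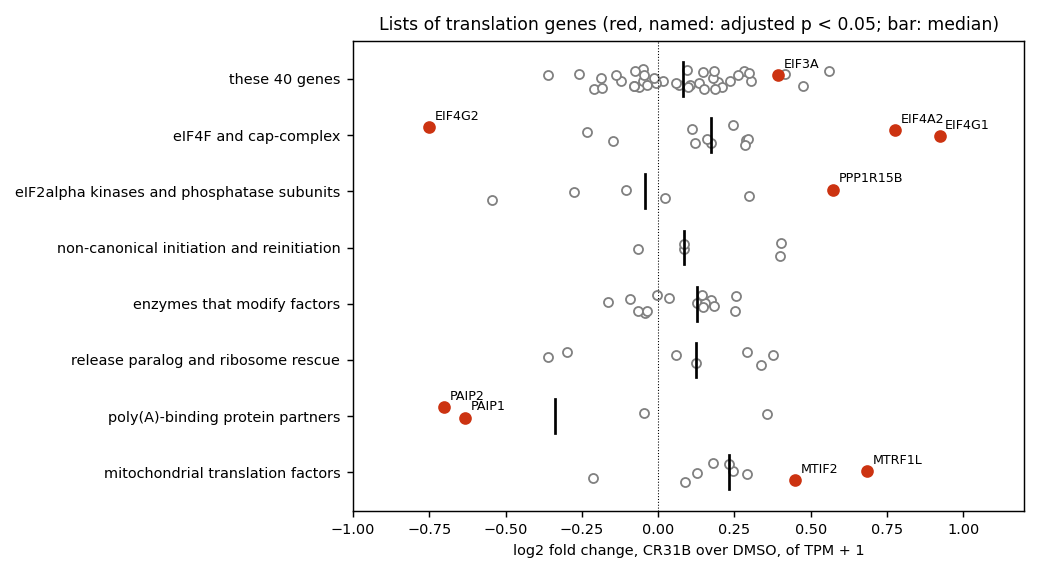
Log2 fold change of TPM + 1 for the 40 genes and for each of the 7 further lists of translation genes, 1 point a gene, with bars for the list medians. Red, named points passed the limma test: 1 of 40 in the top row, 3 of 13 for eIF4F and its regulators, and 2 of 4 tested partners of the poly(A)-binding protein.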

How the data were processed

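Ribosome-protected fragments of 28 to 30 nt, per the labels' protocols, were sequenced from 4 CR31B and 4 DMSO libraries. The authors deposited TPM values for 60651 genes, a unit with the same sum in every library that keeps no read totals, so no counting error can be given. Per the submitters' processing notes the build was hg38, with cutadapt 3.2, Bowtie2 2.3.4.1, STAR 2.7.1a and RSEM 1.2.28. The annotation, strand setting and lengths used are not given in the sources used here. The members and gene lists were chosen with earlier results of these data known, and the start-site and leader searches and the sums with copies after values were seen.

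Symbols were matched by Ensembl identifier without version (60481 genes). From the deposited TPM, log2(TPM + 1) was fitted by limma 3.58.1 (R 4.3.3; eBayes with trend, treatment only) for the 11778 genes averaging 1 TPM or more, with Benjamini-Hochberg adjustment over all of them. In 5 simulated data sets, 71.4% of 2-fold and 97.6% of 4-fold changes were recovered, with 4.33% false calls. The simulated noise was independent between libraries, without the shared deviation of replicate numbers given below. Changes smaller than 2-fold were not simulated. Exact permutation tests were two-sided over 70 assignments. Named genes were members that passed with or without the replicate block and, per further list, the largest rise and fall that passed. Same-numbered libraries deviated together (correlations across genes of 0.333, 0.324, 0.301 and 0.105, against -0.206 to 0.134 for libraries of different numbers, a range that holds the value of replicate 4), so the numbers were treated as pairs in a block. Of the members, 26 have exons that overlap another gene in GENCODE 29 on either strand, 6 on the same strand. Python 3.11.15, pandas 2.3.3, SciPy 1.17.1 and matplotlib 3.10.9 served for the rest.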

Additional observations from a re-analysis of the deposited data

Results flagged for a closer look

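Of 80 groups of 4 libraries looked at (40 genes in 2 treatments), 2 held a library whose gap to its nearest neighbour, divided by the range of the 4 values, was above Dixon's 95% critical value for 4 samples; chance gives about 1 in 20, or 4. For EIF3H, CR31B replicate 1 had 150.4 TPM, and its group otherwise spanned 95.1 to 104 TPM (gap of 0.846 of the range). For EIF3I, the same library had 297 TPM, and its group otherwise spanned 224 to 229 TPM (gap of 0.936 of the range). That library also led in the share of TPM from protein-coding genes, with 61.3% where the 3 remaining CR31B libraries had 51.8% to 52.3%. Its part in these values was not tested.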

How the results depend on the processing

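The count of members that passed in limma was 4 with the replicate block and 6 after rescaling over protein-coding genes. It was also 4 with members summed with their copies and the block, added after the data were seen. Of all genes tested in these fits, 12.3%, 11.9% and 12.3% passed. The count was 0 without a filter on low values and 0 without the mean-variance trend, against 1.55% and 7.39% of all genes tested. There, 8 and 7 members had an unadjusted p under 0.05 in limma. Leaving out single libraries gave from 0 to 1 (3 to 7 at an unadjusted p under 0.05), against 3.43% to 6.68% of all genes tested. Of the values of single members under alternatives, 717 kept direction and side of the threshold, 9 of EIF3A became weaker, 11 became stronger and 21 reversed. The replicate block changed no call other than those of EIF2S2, EIF5A and EIF5B. Reversed estimates were EIF3K 0.033, EIF3M 0.025 and EEF1B2 0.040 after quantile normalization, and EIF3L 0.028 and EEF2K 0.016 after rescaling over protein-coding genes. Without single libraries the estimate ran from -0.0026 to 0.20 for EEF2, from -0.15 to 0.18 for EEF2K, from -0.18 to 0.016 for EIF2B3, from -0.23 to 0.14 for EIF3B, from -0.10 to 0.097 for EIF3F, from -0.23 to 0.021 for EIF3H and from -0.13 to 0.081 for EIF3L. The median of the members ran from 0.014, without CR31B replicate 1, to 0.12, after rescaling over protein-coding genes. The medians over all genes tested in these fits were -0.0047 and 0.064. The cause of these differences was not tested.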
